A study of Mus musculus with 6 samples.

Results

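The semaphorin, Slit, ephrin and netrin families and their receptors were followed by sequencing of polyadenylated RNA from the entire lung of mouse fetuses at E18.5, late in gestation. Members were taken by gene symbol, with a floor on the counts as the only measured value in the rule. They are the semaphorins, plexins, Slits, Robos, ephrins, Eph receptors, netrins and Unc5 receptors with a mean of at least 10 counts over the 6 libraries. Of 65 genes with a matching symbol 61 were kept, out of 55359 genes in the table, and all 61 were among the 17728 genes with enough counts to be tested. The 4 left out were Epha6, Epha8, Epha10 and Robo3, with mean counts of 0.167, 3.50, 1.67 and 7.67. The kept members nearest the floor were Slit1 and Unc5d, with mean counts of 11.2 and 37.5.

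Genotype labels put 3 lungs in a wild type group and 3 in a group with knockdown of Prmt5, an arginine methyltransferase that acts on histones and splicing proteins. All 6 carry the strain label C57, and the series text speaks of a knockout of Prmt5 restricted to the mesenchyme by Dermo1, another name of Twist2. The housing text is the same for all 6 samples and describes the mothers as pregnant mice with the knockdown in lung mesenchyme, so it does not tell the groups apart. Libraries held 14383415 to 19262837 counts. The targeted gene checks the label: Prmt5 stood at 11.7, 11.8 and 12.2 FPKM in wild type replicates 1 to 3 and at 10.1, 11.8 and 12 FPKM in knockdown-labelled replicates 1 to 3. FPKM is the count scaled to exon length and library size. The log2 fold change was -0.08, with a 95% confidence interval of -0.29 to 0.13, and did not pass edgeR's quasi-likelihood test (Benjamini-Hochberg adjusted p = 0.682), so the second group is called knockdown-labelled. Twist2, the gene whose other name the series text gives for the driver, was at 0.81, 0.64 and 0.97 FPKM in wild type against 0.33, 0.28 and 0.47 FPKM, with no overlap (log2 fold change -1.14, interval -1.84 to -0.45, edgeR adjusted p = 0.163). Embryo sex was not balanced between the groups, as read from the Y chromosome gene Ddx3y. It was at 22.93, 0 and 0.02 FPKM in wild type replicates 1 to 3 and at 26.16, 0.01 and 20.75 FPKM in the knockdown-labelled ones. Whole-lung RNA mixes cell types, and fewer cells of a type cannot be told apart from less RNA per cell. Lung identity was clear from alveolar type 2 cell markers, whose summed level was 15322 to 19940 CPM (counts scaled to library size only) over the 6 libraries. Nothing in the labels tells whether litters were shared, so the p-values rest on the scatter among these 6 samples, part of which may be technical.

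Guidance molecules were named for steering axons and also shape vessels and branching epithelia. Class 3 semaphorins are secreted and act through plexins, mostly with neuropilins as the binding partner, while the other vertebrate classes sit in or on the membrane and bind plexins directly. Slits are large secreted proteins that repel cells through Robo receptors. Ephrins are bound to the cell surface, the A type by a lipid anchor and the B type by a transmembrane stretch, and they activate Eph receptor tyrosine kinases on the neighbouring cell while sending a signal back into their own. Netrins are laminin-related secreted cues that bind Unc5 receptors, Dcc and neogenin.

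The stretch of 250 bases before the annotated start of 4 members is shown, because Sema3g, Epha3 and Slit2 were among the members with the clearest differences and Slit3 is the close relative of Slit2 that did not share it. They are RefSeq sequences on GRCm38.p6, printed 5′ to 3′ on the gene's strand, with letters in capitals where a searched motif matched on either strand. The motifs were the GC box GGGCGG, the TATA box TATAAA, the E-box CANNTG and the forkhead motif TGTTTAC, and neighbouring matches may overlap.
Sema3g (chr14:31217623-31217872, plus strand): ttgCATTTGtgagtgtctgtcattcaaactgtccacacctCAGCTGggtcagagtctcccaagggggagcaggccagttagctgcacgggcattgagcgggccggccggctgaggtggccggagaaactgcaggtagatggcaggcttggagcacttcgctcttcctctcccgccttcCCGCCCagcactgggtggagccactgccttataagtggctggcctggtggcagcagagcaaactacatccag
Epha3 (chr16:63864176-63864425, minus strand): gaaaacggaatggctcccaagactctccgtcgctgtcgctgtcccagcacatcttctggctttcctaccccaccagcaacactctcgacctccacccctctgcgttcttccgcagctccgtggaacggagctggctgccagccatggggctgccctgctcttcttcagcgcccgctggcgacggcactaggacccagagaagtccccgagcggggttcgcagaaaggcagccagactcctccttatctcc
Slit2 (chr5:47982905-47983154, plus strand): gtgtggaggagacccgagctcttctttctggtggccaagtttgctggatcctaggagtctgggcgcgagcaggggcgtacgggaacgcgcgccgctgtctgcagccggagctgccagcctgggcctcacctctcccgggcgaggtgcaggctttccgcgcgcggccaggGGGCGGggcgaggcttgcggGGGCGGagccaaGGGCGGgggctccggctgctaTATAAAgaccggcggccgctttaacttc
Slit3 (chr11:35121206-35121455, plus strand): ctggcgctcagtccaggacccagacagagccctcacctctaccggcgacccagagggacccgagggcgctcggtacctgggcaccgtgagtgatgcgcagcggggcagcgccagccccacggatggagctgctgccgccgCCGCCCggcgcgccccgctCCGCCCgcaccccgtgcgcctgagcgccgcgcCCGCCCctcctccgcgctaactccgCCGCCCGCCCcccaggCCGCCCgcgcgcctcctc
The Slit2 window held 3 GC boxes and 1 TATA box and the Slit3 window 6 GC boxes and no TATA box. Sema3g had 2 E-boxes and 1 GC box, and none of the motifs matched in the Epha3 window. Of the 61 members 52 had a RefSeq window, 68 windows in all as some have several starts. A GC box was found in 69.1% of these 68 windows and in 32.7% of all 32851 windows in the RefSeq table. A TATA box was found in 2.94% against 12.4%, an E-box in 45.6% against 66.2% and the forkhead motif in 0 against 3.17%. These are matches of letters and do not show that a factor binds. The shares were also not matched for base composition. G and C made up 60.4% to 78.8% of the 4 windows shown, beside a median of 52.4% over all windows.

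The late fetal lung held a few guidance genes at high levels and many at low ones. The order of all 61 by mean FPKM over the 6 libraries ran from Efna1, the ephrin-A1 ligand, at 59.0 down to Slit1 at 0.113, with a median of 6.20 (see the plot of levels by library). Efna1 was followed by the plexins Plxnb2 (46.7 FPKM) and Plxnd1 (43.5), the receptor Ephb4 (42.6) and its family's ligand Efnb1 (37.1). Efna1 lay above Plxnb2 in every library, while the ranges of Plxnb2, Plxnd1, Ephb4 and Efnb1 overlapped from each to the next. Efnb1 lay above Sema7a, the next in order, in all libraries. Below it the ranges of neighbours overlapped at every step but that from Ntn5 to Ephb2.

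**Figure D1:**
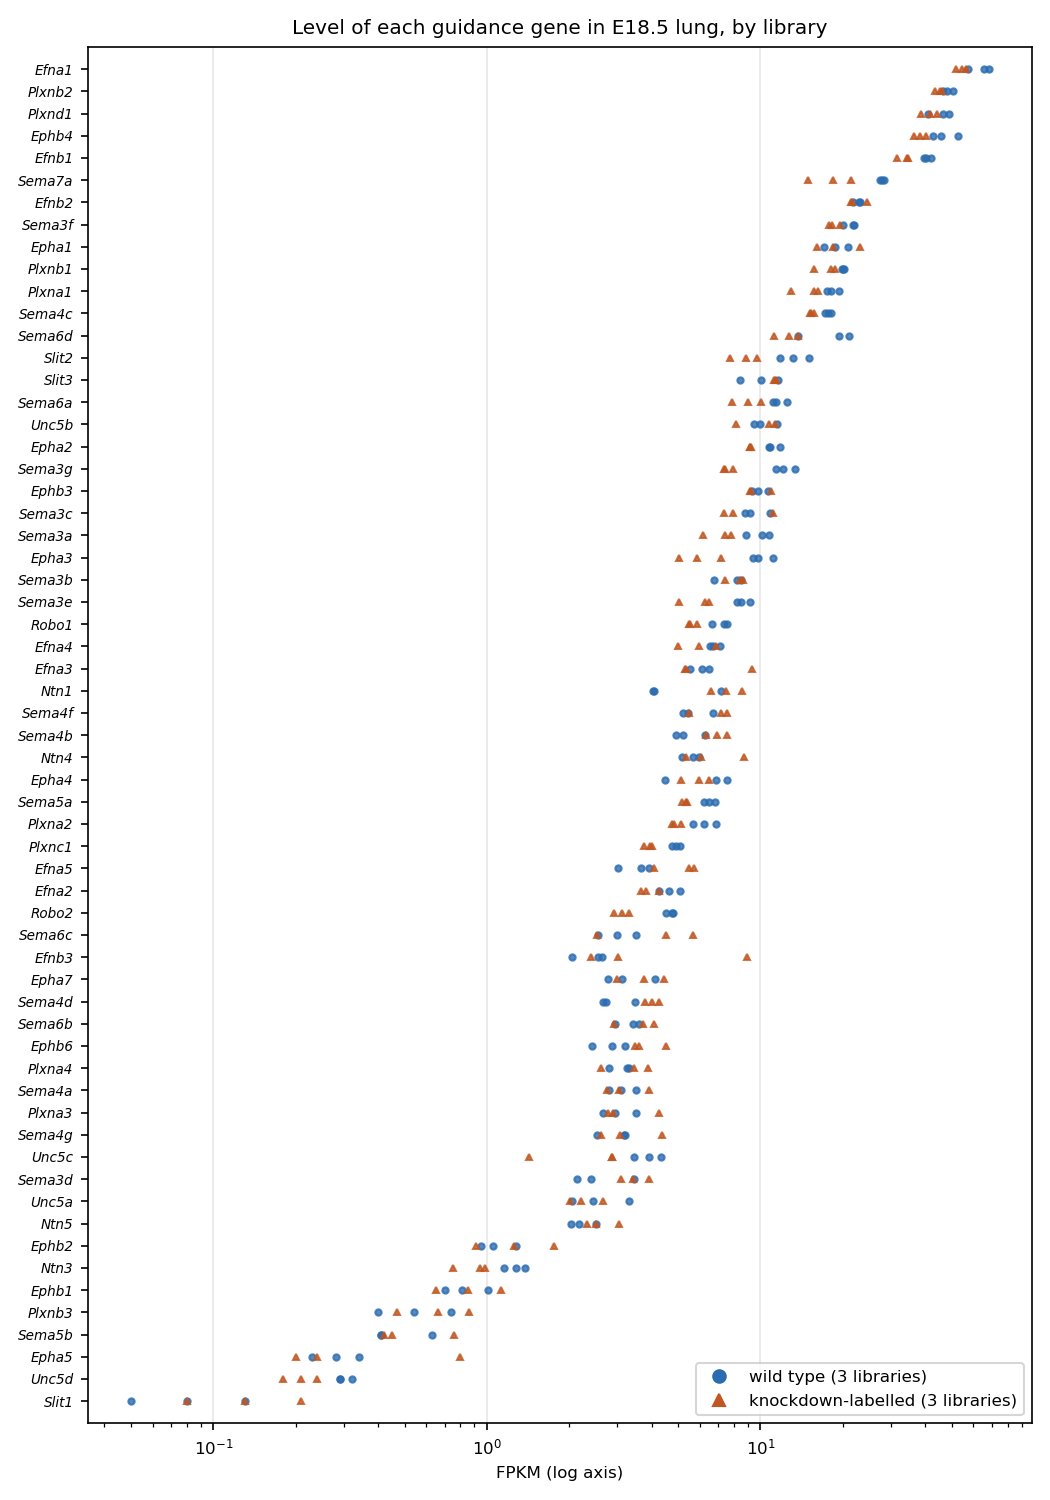
FPKM of the 61 members in each library on a log axis, ordered by the mean over the 6 libraries, with circles for 3 wild type and triangles for 3 knockdown-labelled libraries. Efna1 is at the top at 51.9 to 68.5 FPKM, and for many genes in the upper part of the order the triangles lie to the left of the circles.

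Many guidance genes stood lower in the knockdown-labelled lungs and few stood higher, although none passed the test over all genes. At an adjusted p under 0.05 in edgeR's quasi-likelihood test 0 of 61 members were called, where 0.0338% of all genes tested were (6 of 17728), 0.0282% lower and 0.00564% higher. At an unadjusted p under 0.05, 23 of the 61 (37.7%) stood lower and 5 (8.20%) higher, or 28 in all, beside 8.52%, 8.48% and 17.0% of all genes tested. Every knockdown-labelled value was under every wild type value for 25 members (41.0%) and above them for 4 (6.56%), beside 12.4% and 10.8% of all genes tested. The median log2 fold change of the members was -0.12, against 0.01 for all genes tested. DESeq2, run as an alternative, called 13 members lower and 0 higher at an adjusted p under 0.05, beside 1.37% and 1.12% of genes in its fit. With no filter on low counts edgeR called 3 lower, Sema3g, Robo2 and Epha3, and 0 higher, beside 0.150% and 0.0982% of genes. Both fits held 32572 genes, many with fewer counts than any member, so these shares do not compare genes of like level. Leaving out each library in turn gave 16 to 22 members lower and 1 to 5 higher at an unadjusted p under 0.05, the 1 without wild type replicate 1. In these fits 4.7% to 8.47% of all genes tested stood lower and 4.43% to 9.65% higher.

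The share of members that stood lower was above that of all genes at each level, and was higher among the more abundant members. Of the 35 members with a mean of at least 5 FPKM, 19 (54.3%) stood lower at an unadjusted p under 0.05 and 2 higher, beside 11.8% and 7.65% of the 8966 genes tested at that level. Of the 18 members with at least 10 FPKM 12 (66.7%) stood lower and 0 higher, beside 12.9% and 8.22% of the 5571 genes tested at that level. Among the 26 members under 5 FPKM 4 (15.4%) stood lower and 3 (11.5%) higher, beside 5.12% and 9.34% of the 8762 genes tested there. Of these 26, 19 had positive log2 fold changes. Less abundant genes leaned that way over all genes too. Negative estimates made up 47.1% of the 17728 genes tested and 54.1% of the 8966 with at least 5 FPKM. By side, 13 of 35 ligands and 10 of 26 receptors stood lower, and 4 ligands and 1 receptor higher.

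**Figure D2:**
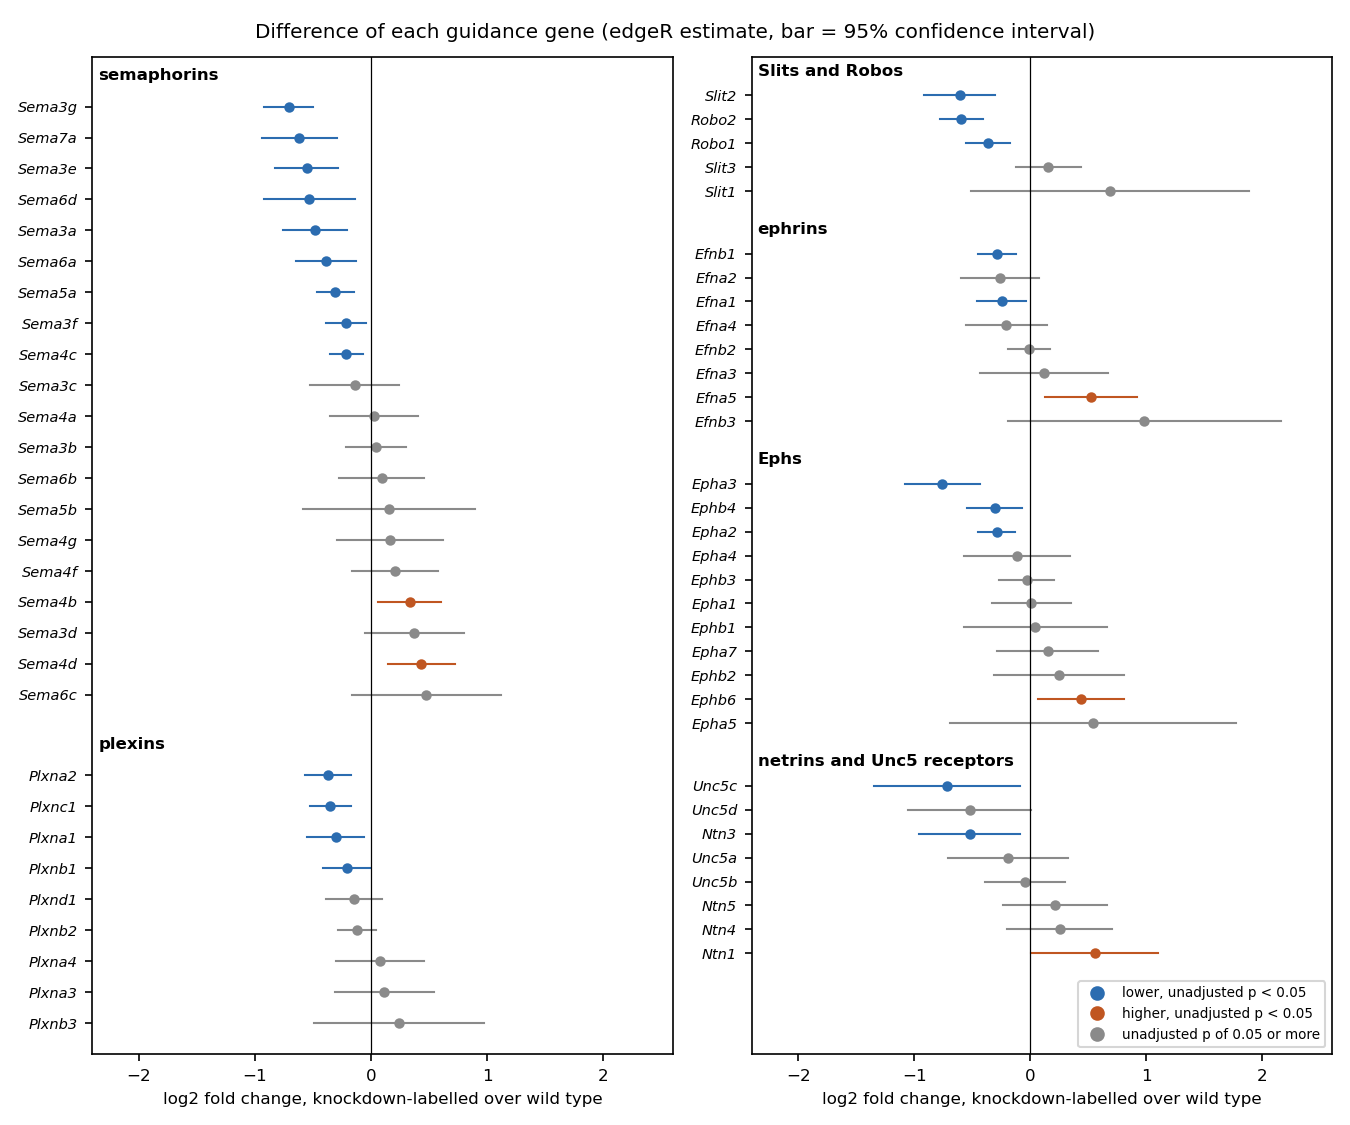
Log2 fold change of knockdown-labelled over wild type for each of the 61 members, grouped by family, with points for the edgeR estimate and bars for the 95% confidence interval. The 23 members in blue and the 5 in orange have an unadjusted p under 0.05, and none passed an adjusted p of 0.05.

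Semaphorins made up the largest family, with 20 members, of which 9 stood lower and 2 higher at an unadjusted p under 0.05 and 0 at an adjusted one. For this and each family below, 8.52% of all genes tested stood lower and 8.48% higher at that unadjusted p. Their summed level was 181 ± 2.62 FPKM in wild type and 153 ± 0.0839 FPKM in the knockdown-labelled lungs (SD, n = 3 each). Sema3g, a secreted class 3 semaphorin known from arterial endothelium, had the smallest p of all members. Its level was 12.1, 13.3 and 11.4 FPKM in wild type and 7.96, 7.39 and 7.34 FPKM in the knockdown-labelled libraries. The groups were far apart and each was tight, a 1.64-fold lower level (log2 fold change -0.71, standard error 0.0875, edgeR adjusted p = 0.0775). Sema3g lies on chromosome 14 at 30939817 to 30952309, plus strand, in the table's coordinates, whose build is not given in the sources used here.

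Other secreted semaphorins followed. Sema3e, the ligand of plexin-D1, stood at 9.16, 8.24 and 8.49 FPKM in wild type and 6.48, 6.29 and 5.03 FPKM in the knockdown-labelled libraries (log2 fold change -0.55, 95% confidence interval -0.83 to -0.28). Sema3a, which repels axons and endothelial cells through neuropilin-1, stood at 10.8, 8.83 and 10.2 against 7.82, 7.45 and 6.18 FPKM (log2 fold change -0.48, interval -0.76 to -0.21). For both genes every wild type library was above every knockdown-labelled one. Sema3f, a neuropilin-2 ligand and the most abundant secreted semaphorin here, differed less, with 22.02, 21.9 and 19.99 against 17.8, 18.3 and 19.5 FPKM and a log2 fold change of -0.21. The remaining class 3 members did not differ beyond their spread: the intervals were -0.52 to 0.24 for Sema3c, -0.21 to 0.31 for Sema3b and -0.051 to 0.80 for Sema3d.

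Membrane-bound semaphorins went both ways. Sema7a, a lipid-anchored semaphorin that binds plexin-C1 and integrins, was the most abundant semaphorin at 27.9, 28.2 and 27.3 FPKM in wild type, and stood at 18.4, 21.4 and 14.97 FPKM in the knockdown-labelled libraries. Wild type values were nearly equal and the knockdown-labelled ones scattered below them, with a log2 fold change of -0.62 (standard error 0.136, edgeR adjusted p = 0.14). Sema5a, which carries thrombospondin repeats, stood at 6.2, 6.81 and 6.51 against 5.17, 5.37 and 5.34 FPKM (log2 fold change -0.31). By group means Sema6a went from 11.7 ± 0.739 to 8.98 ± 1.06 FPKM, Sema4c from 17.7 ± 0.401 to 15.4 ± 0.225 and Sema6d from 18.1 ± 3.89 to 12.6 ± 1.27 (SD, n = 3 each), the last with overlapping groups. Sema4d, a plexin-B1 ligand also made by immune cells, and Sema4b were the 2 higher semaphorins. Sema4d went from 2.96 ± 0.464 to 4.02 ± 0.245 FPKM and Sema4b from 5.46 ± 0.715 to 6.94 ± 0.62 FPKM, and the groups did not overlap for either. The unadjusted p of Sema4b was no longer under 0.05 when certain single libraries were dropped, wild type replicate 1 among them.

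Plexins, the semaphorin receptors, had 9 members, of which 4 stood lower and 0 higher at an unadjusted p under 0.05. Plxnc1, the receptor of Sema7a, was at 4.93, 5.09 and 4.75 FPKM in wild type and 3.94, 4 and 3.74 FPKM in the knockdown-labelled libraries (log2 fold change -0.35, standard error 0.0742). Plxna2, which pairs with neuropilins, was at 6.24, 5.69 and 6.88 against 5.12, 4.82 and 4.73 FPKM (log2 fold change -0.37). Neither gene's groups overlapped. Plxna1, another neuropilin partner, was at 19.3, 17.5 and 18.1 against 12.9, 16.3 and 15.7 FPKM, and the Sema4d receptor gene Plxnb1 at 20.2, 20 and 19.9 against 18.7, 18.1 and 15.7 FPKM, with log2 fold changes of -0.30 and -0.21. Plxna1 was at -0.19 without knockdown-labelled replicate 1, and its unadjusted p was no longer under 0.05 without wild type replicate 1. Plxnb1 was at -0.13 without knockdown-labelled replicate 3. Its unadjusted p was no longer under 0.05 there, nor with each wild type library left out in turn.

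The 2 most abundant plexins differed little. Plxnb2, at 48.1, 50.4 and 46.7 FPKM in wild type and 45.2, 43.4 and 46.3 FPKM in the knockdown-labelled libraries, had a log2 fold change of -0.12 (interval -0.28 to 0.045) although its groups did not overlap. Plxnd1, the endothelial receptor of Sema3e, was at 48.96, 46.6 and 41.01 against 41.6, 44.1 and 38.7 FPKM with overlapping groups (interval -0.39 to 0.092). Plxna3, Plxna4 and Plxnb3 had intervals that spanned 0, with log2 fold changes of 0.12, 0.08 and 0.24.

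In the Slit and Robo family both kept Robo receptors and 1 of 3 Slits stood lower. Robo2 was at 4.75, 4.79 and 4.5 FPKM in wild type and at 3.31, 3.13 and 2.92 FPKM in the knockdown-labelled libraries. The gap between the groups was wider than the spread within either, a 1.51-fold lower level (log2 fold change -0.60, standard error 0.0786, edgeR adjusted p = 0.0804). Robo1, its neighbour in the same region of chromosome 16, was at 7.33, 7.56 and 6.65 against 5.51, 5.85 and 5.5 FPKM, again without overlap (log2 fold change -0.36, edgeR adjusted p = 0.141). In the table's coordinates Robo1 spans 72105194 to 72842983 on the plus strand and Robo2 73688727 to 74208713 on the minus strand.

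Slit2 was at 13.1, 15.03 and 11.8 FPKM in wild type and 7.72, 9.72 and 8.89 FPKM in the knockdown-labelled libraries, with no overlap (log2 fold change -0.61, edgeR adjusted p = 0.135). Slit3, with 8.41, 11.6 and 10.1 against 11.4, 11.2 and 11.3 FPKM, overlapped and had a log2 fold change of 0.16 (interval -0.13 to 0.44), which was 0.28 without wild type replicate 2, then at an unadjusted p under 0.05, and 0.045 without wild type replicate 1. Slit1 was at 0.13, 0.05 and 0.08 against 0.13, 0.08 and 0.21 FPKM, and the interval of its difference was -0.51 to 1.89.

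Ephrins, the ligands of Eph receptors, had 2 members lower (25%) and 1 higher (12.5%) of 8 at an unadjusted p under 0.05. The shares of all genes tested were 8.52% and 8.48%. Efna1, a ligand of Epha2 and the most abundant of all members, was at 68.5, 65.4 and 57.4 FPKM in wild type and 56.3, 54.6 and 51.9 FPKM in the knockdown-labelled libraries (log2 fold change -0.24, interval -0.46 to -0.033). Efnb1 was at 41.9, 39.6 and 40.2 against 31.7, 34.6 and 34.4 FPKM (log2 fold change -0.28, standard error 0.0686). In both genes the highest knockdown-labelled library stayed below the lowest wild type one. Efna5 was the higher one, with 3.02, 3.9 and 3.67 against 4.08, 5.7 and 5.5 FPKM and a log2 fold change of 0.52 (interval 0.12 to 0.92), again without overlap. Its unadjusted p was no longer under 0.05 when certain single libraries were dropped, wild type replicate 1 among them. Efnb2, the arterial ligand of Ephb4, showed no difference, with means of 22.6 ± 0.758 and 22.6 ± 1.75 FPKM (SD, n = 3 each) and an interval of -0.20 to 0.17.

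Efnb3 had the largest estimate of all members, 0.98, and this estimate moved with 1 library and with each covariate tried. Its level was 2.05, 2.64 and 2.55 FPKM in wild type and 2.4, 8.95 and 3.02 FPKM in the knockdown-labelled libraries, with the high value in replicate 2. The interval of the difference was -0.19 to 2.16, and without that library the log2 fold change was 0.14. The same library had the highest summed levels of heart muscle markers and of lymphocyte and thymus markers, described further on. With the heart muscle level as a covariate the log2 fold change was -0.26, with embryo sex (read from Ddx3y) 1.12 and with the endothelium level 2.40, the last 2 at an unadjusted p under 0.05.

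Of 11 Eph receptors kept, 3 (27.3%) stood lower and 1 (9.09%) higher at an unadjusted p under 0.05, beside 8.52% and 8.48% of all genes tested. Epha3, a receptor of A-type ephrins found in fetal mesenchyme, had the most negative estimate of all 61 members. It was at 9.4, 11.1 and 9.81 FPKM in wild type and 5.04, 5.84 and 7.16 FPKM in the knockdown-labelled libraries, a 1.69-fold lower level (log2 fold change -0.76, standard error 0.136, edgeR adjusted p = 0.113). The groups were separated by more than the spread in either. Epha3 lies on chromosome 16 at 63363897 to 63684538, minus strand, in the table's coordinates.

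Epha2, an epithelial and endothelial receptor of ephrin-A1, was at 10.7, 10.9 and 11.8 against 9.24, 9.19 and 9.12 FPKM (log2 fold change -0.29). Ephb4, the venous receptor of ephrin-B2, was the most abundant Eph gene at 45.6, 52.6 and 42.6 FPKM in wild type and 36.5, 40.1 and 38.1 FPKM in the knockdown-labelled libraries (log2 fold change -0.31, interval -0.54 to -0.069). Both had all knockdown-labelled libraries below all wild type ones. Ephb6, which lacks kinase activity, was the higher member, at 2.43, 2.86 and 3.19 against 4.51, 3.48 and 3.59 FPKM (log2 fold change 0.44). Its unadjusted p was no longer under 0.05 when certain single libraries were dropped, wild type replicate 1 among them. Epha1 was at 18.8, 20.97 and 17.1 against 23.2, 16.1 and 18.4 FPKM with no difference beyond its spread (interval -0.33 to 0.35), and its span overlaps Zyx, which has more counts, on the other strand. The other 6 Eph genes overlapped between groups, with log2 fold changes from -0.12 for Epha4 to 0.54 for Epha5. The Epha5 estimate rested on knockdown-labelled replicate 3, at 0.8 FPKM where every other library had at most 0.34 FPKM. Without that library it was -0.35, and with the endothelium level as a covariate -1.13.

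Netrins and Unc5 receptors had 2 members lower (25%) and 1 higher (12.5%) of 8 at an unadjusted p under 0.05. The shares of all genes tested were 8.52% and 8.48%. Unc5c, a repulsive netrin receptor, was at 4.34, 3.91 and 3.44 FPKM in wild type and 1.42, 2.87 and 2.86 FPKM in the knockdown-labelled libraries, with replicate 1 lowest (log2 fold change -0.72, interval -1.35 to -0.093). Without that library the log2 fold change was -0.44. Unc5b, the endothelial netrin receptor and the most abundant of the 8, was at 11.5, 9.94 and 9.49 against 11.3, 10.7 and 8.15 FPKM and overlapped (interval -0.39 to 0.30). Ntn1, the classical netrin, was at 4.04, 4.08 and 7.17 against 6.57, 8.54 and 7.47 FPKM (log2 fold change 0.55, interval 0.0040 to 1.10). Its wild type replicate 3 lay among the knockdown-labelled values, and this was the wild type library with the most heart muscle RNA. The same library was also the highest of the wild type ones in skeletal muscle, smooth muscle, and lymphocyte and thymus markers. Without that library the log2 fold change of Ntn1 was 0.88, and with the heart muscle level as a covariate it was -0.073. Ntn3 was at 1.38, 1.28 and 1.15 against 0.75, 0.94 and 0.98 FPKM (log2 fold change -0.52), but its span overlaps Tbc1d24 on the same strand, which has more counts, so its value is uncertain. The intervals of Ntn4, Ntn5, Unc5a and Unc5d each spanned 0.

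**Figure D3:**
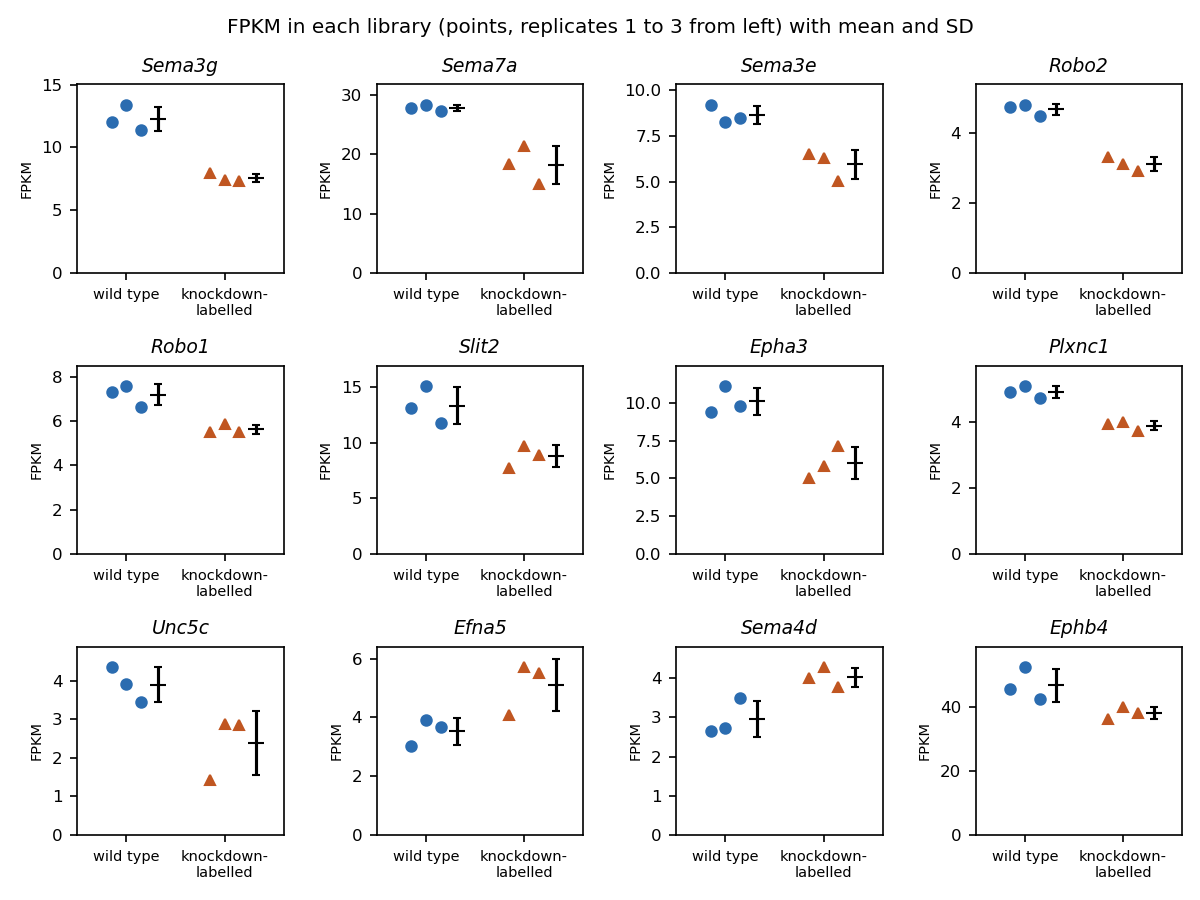
FPKM in each library for 12 members, with circles for wild type, triangles for knockdown-labelled and bars for the mean and SD of 3 libraries. In 10 panels the knockdown-labelled points lie below the wild type ones, as for Robo2 with 2.92 to 3.31 against 4.50 to 4.79 FPKM, and in those of Efna5 and Sema4d they lie above.

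Relatives within a family did not always differ alike, and the ratio of their FPKM within a library shows this free of any scaling between libraries. The pairs were picked after their values were seen, so the ratios are a description. The ratio of Slit2 to Slit3 was 1.56, 1.29 and 1.17 in wild type replicates 1 to 3, against 0.677, 0.871 and 0.787 for the knockdown label. Slit2 was thus the higher Slit in every wild type library and Slit3 in every knockdown-labelled one. Epha3 to Epha7 gave 3.01, 4 and 2.38 against 1.68, 1.56 and 1.61. Sema3e to Sema3d gave 4.30, 3.43 and 2.47 against 1.89, 2.04 and 1.29. Sema4d to Sema4c gave 0.150, 0.158 and 0.193 against 0.257, 0.279 and 0.249. Efna5 to Efna1 was 0.0441, 0.0597 and 0.0639 against 0.0725, 0.104 and 0.106, with ephrin-A1 the far more abundant in all 6 libraries. Unc5c to Unc5b gave 0.379, 0.393 and 0.362 against 0.126, 0.267 and 0.351. Robo2 to Robo1 gave 0.648, 0.634 and 0.677 against 0.601, 0.535 and 0.531. None of these 7 ratios overlapped between the groups.

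**Figure D4:**
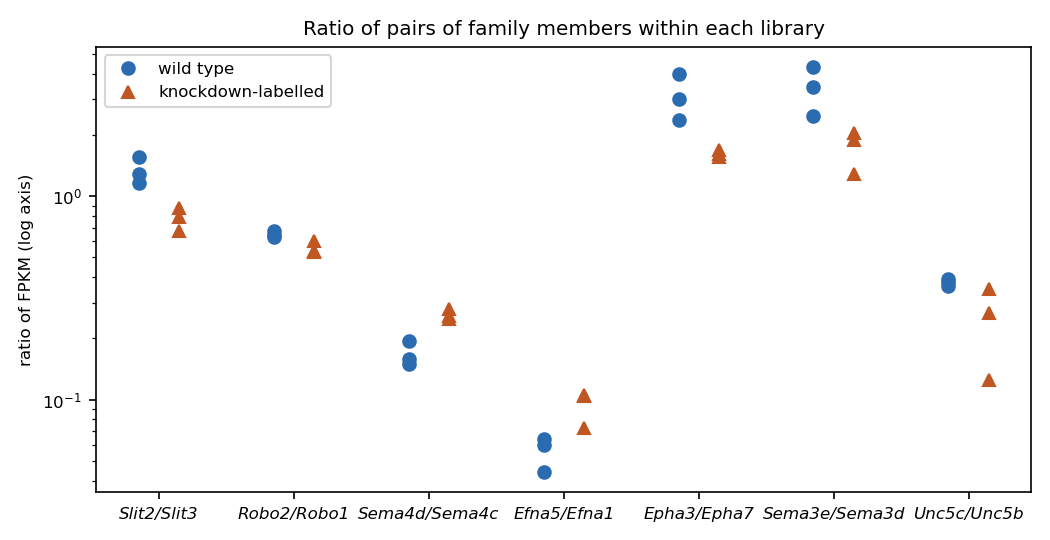
Ratio of the FPKM of 2 relatives in each library on a log axis, with circles for wild type and triangles for knockdown-labelled. The Slit2 to Slit3 ratio lies above 1 in all wild type libraries and below it in all knockdown-labelled ones.

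Partners of these families outside the symbol rule were taken from lists written with earlier results of these data known. Of 16 tested coreceptors and other receptors 7 stood lower and 2 higher at an unadjusted p under 0.05, beside 8.52% and 8.48% of all genes tested. At an adjusted p under 0.05 there were 0, and the median log2 fold change was -0.21. The 3 with the smallest p were the collagen receptor subunit Itga1 (16.4 ± 1.13 against 10 ± 0.609 FPKM), the endothelial Robo4 (18.4 ± 1.17 against 13.9 ± 0.446 FPKM) and the netrin receptor Dcc (all SD, n = 3 each). Dcc, at 0.02 FPKM in each wild type library and 0.05 to 0.07 FPKM in the others, was near the limit of detection. Both neuropilins, the coreceptors of class 3 semaphorins, stood lower and were named for that role after their values were seen: Nrp1 was at 21.7 ± 1.35 against 15.8 ± 2.39 FPKM and Nrp2 at 18.6 ± 1.66 against 14.1 ± 1.42 FPKM.

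Other guidance ligands and the effectors inside the cell showed no such lean. Of 14 tested ligands 2 stood lower and 2 higher, with a median of 0.21, and the 3 with the smallest p were Slitrk5, Slitrk4 and the chemokine gene Cxcl12 (log2 fold changes 1.55, 1.99 and -0.25). Of 48 intracellular effectors 6 stood lower and 7 higher, with a median of -0.03. For both lists the shares of all genes tested were 8.52% lower and 8.48% higher. Among the collapsin response mediators, which relay semaphorin signals to microtubules, Dpysl2 stood lower (41.6 ± 3.12 against 32.3 ± 2.6 FPKM) and Dpysl3 (11.8 ± 2.32 against 19.3 ± 3 FPKM) and Dpysl5 (0.763 ± 0.0987 against 1.57 ± 0.303 FPKM) higher. None of these had an edgeR adjusted p under 0.05.

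Markers of several cell types moved with the groups. All 16 endothelium markers had negative estimates (median log2 fold change -0.41), 13 of them at an unadjusted p under 0.05, and their summed level was 4051 to 4585 CPM in wild type and 2830 to 3581 CPM in the knockdown-labelled libraries. Of 12 alveolar type 1 cell markers 11 were negative (median -0.45, summed level 7539 to 8564 against 4919 to 6309 CPM). Of 14 mesenchyme markers 10 were negative (median -0.30, 6610 to 7376 against 6368 to 7748 CPM). Of these markers 8 stood lower and 1 higher at an unadjusted p under 0.05, beside 8.52% and 8.48% of all genes tested. At an adjusted p under 0.05 in edgeR 1 mesenchyme marker was called, beside 0.0338% of all genes tested. All 16 heart muscle markers were positive with a median of 2.26, and their summed level was 520 to 3060 CPM in wild type and 3491 to 13148 CPM in the knockdown-labelled libraries. All 14 neuron and Schwann cell markers were detected and 13 were positive (median 0.92, 220 to 256 against 192 to 314 CPM). Skeletal muscle (91.2 to 1757 against 535 to 4147 CPM) and lymphocyte and thymus markers (3.67 to 133 against 9.27 to 197 CPM) varied widely within both groups. Of 8 ciliated cell markers 4 stood higher (median 0.26). Of 6 tested cartilage markers 3 stood higher but 1 stood lower (median 0.73). The summed cartilage level overlapped between the groups, with 95.3 to 116 CPM in wild type and 85.0 to 151 CPM in the knockdown-labelled libraries. Alveolar type 2, smooth muscle, mesothelium and erythroid markers had medians of -0.03, 0.37, 0.01 and 0.04. No marker in the table was at 0 in all 6 libraries, and 1 gene, Robo4, is on both the endothelium and the coreceptor list.

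The members' counts were then taken with these levels in the model. With the heart muscle level as a covariate 12 members stood lower and 2 higher at an unadjusted p under 0.05, beside 3.76% and 3.32% of all genes tested. Among the 12 were Sema3g (log2 fold change -0.61), Robo2 (-0.55), Epha3 (-0.69), Slit2 (-0.56) and Sema7a (-0.80). With the endothelium level as a covariate 5 stood lower, beside 1.56% of all genes tested, and 2 higher, beside 2.79%. The 5 were Sema3g (-0.67), Robo2 (-0.47), Epha3 (-0.91), Sema6c (-0.85) and Ephb2 (-0.77), of which the last 2 had positive estimates without the covariate (0.48 and 0.25). The 2 higher were Efnb3 and Ntn4 (0.79). Of the 28 members with an unadjusted p under 0.05 without the covariate, only Sema3g, Robo2 and Epha3 kept one. Most of the others were nearer 0 than without the covariate and had an unadjusted p of 0.05 or more. Among them were Sema7a at -0.15, Slit2 at -0.32, Sema3e at -0.24 and Sema3a at -0.21. Robo1 at -0.16, Unc5c at -0.23, Efna1 at -0.027 and Plxnb1 at -0.026 were others. Further members moved away from 0, also at an unadjusted p of 0.05 or more. They included Plxna2 at -0.39, Epha2 at -0.30, Efna5 at 0.59 and Sema3c at -0.56. Both levels lay apart between the groups in every library, so each covariate is partly the same as the group. The share of each cell type in the members' values was not tested.

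**Figure D5:**
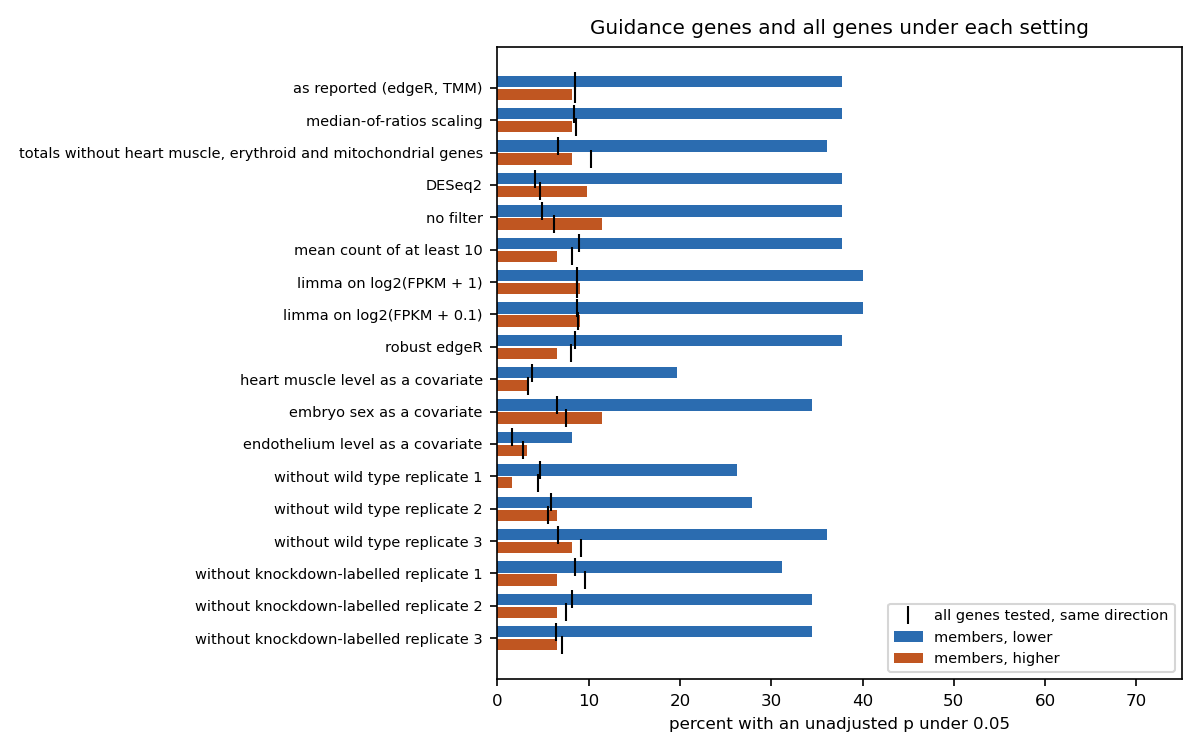
Percent of the members with an unadjusted p under 0.05 that stood lower (blue) or higher (orange) under each way of processing, with black ticks for the percent of all genes tested in the same direction. The blue bar passes its tick under every setting shown, from 37.7% beside 8.52% as reported to 5 of 61 members beside 1.56% with the endothelium covariate.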

How the data were processed

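Whole-lung RNA was measured in 3 wild type and 3 knockdown-labelled libraries after selection of polyadenylated RNA, per the labels' protocols. Raw counts per gene and FPKM values were deposited side by side in 1 table. Tools listed in the submitters' processing notes, with no role stated, are HISAT2 2.0.1, HTSeq 0.6.1 and cutadapt 1.9.1. The build, the annotation and the strand setting were not found in those sources. The deposited FPKM equal the deposited counts scaled to exon length and library total, so depth affects both.

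Counts were tested as deposited with edgeR 4.0.16 (R 4.3.3): filterByExpr, TMM scaling, a quasi-likelihood test of group, and Benjamini-Hochberg adjustment over all 17728 genes tested. The common biological coefficient of variation was 21.8%. Total counts of 14383415 to 19262837 put 3 counts at 0.156 to 0.209 CPM. In data simulated on this comparison (17465 genes) 69% of 2-fold and 95% of 4-fold changes were recovered. These changes were placed only in well-counted genes, and each gene was drawn separately, without shifts shared between genes. Recovery of differences under 2-fold, the size of all the members' estimates, was not simulated. Members with values in every library are the 2 most abundant of each family and those with an unadjusted p under 0.05, up to the 5 smallest per family. Efnb3 and Slit1 were added after their values were seen. From the coreceptor, other ligand and effector lists 3 genes by p were named, and further genes after their values were seen. The members, the pathway lists and the cell type marker lists were chosen with earlier results of these data known. Alternatives were other scalings, DESeq2 1.42.0, other filters, limma 3.58.1 on log2 FPKM, robust dispersion, covariates and leaving out each library. Promoter windows came from RefSeq (GRCm38.p6) and were searched on both strands.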

Additional observations from a re-analysis of the deposited data

How the results depend on the processing

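No paired analysis was possible because the replicate numbers follow the order of the samples and pair none of them. Genes called lower and higher over all genes at an adjusted p under 0.05 went from 5 and 1 to 447 and 366 in DESeq2, where 13 members were called lower. With no filter on low counts they were 49 and 32, with 3 members lower. They were 3 and 0 in limma on log2(FPKM + 0.1), 1 and 0 with the heart muscle covariate, and 0 and 0 with the sex covariate, read from Ddx3y, and with the endothelium covariate. Robust edgeR called 14 genes lower. Members lower and higher at an unadjusted p under 0.05 went from 23 and 5 to 12 and 2 with the heart muscle covariate and to 5 and 2 with the endothelium covariate. The semaphorin median log2 fold change, -0.06 as reported, was -0.021 with totals that leave out heart muscle, erythroid and mitochondrial genes, -0.13 and -0.14 in limma with pseudocounts of 1 and 0.1, -0.0050 with the heart muscle and -0.18 with the endothelium covariate. The Slit and Robo median was -0.46 in limma with a pseudocount of 0.1 and -0.16 with the endothelium covariate, and the plexin median -0.22 with the heart muscle covariate. The Eph median was -0.12, -0.039 and -0.14 with the heart muscle, sex and endothelium covariates, and the netrin and Unc5 median 0.33 with the endothelium covariate. The limma fits left out the least abundant genes and held 55 of the 61 members, without Sema5b and Slit1 among others. Their medians are therefore taken over fewer members than those of the other fits. The size of that effect and the cause of the other shifts were not tested.

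Leaving out each library in turn gave 0 to 4 genes lower and 0 to 13 higher over all genes (13 without wild type replicate 3), with 0 members called. Members lower at an unadjusted p were 16 to 22 and higher 1 to 5, and those not overlapping were 25 to 27 lower and 6 to 7 higher. Groups with fewer libraries separate more easily, so these counts cannot be set beside the 25 and 4 with all libraries. The share of all genes not overlapping was not taken here. Medians ranged from -0.13 to -0.04 for all members (-0.038 without wild type replicate 1), -0.18 to 0.0058 for semaphorins, -0.22 to -0.12 for plexins, -0.42 to -0.32 for Slits and Robos, -0.19 to -0.052 for ephrins, -0.11 to 0.029 for Ephs and -0.23 to 0.030 for netrins and Unc5 receptors. Over all 61 members 10, 4 and 17 changed sign with the heart muscle, sex and endothelium covariates and 2 to 9 when single libraries were dropped. Of the 28 at an unadjusted p under 0.05 only Ntn1 did so, with the heart muscle covariate. Many of the 28 had an unadjusted p of 0.05 or more when certain single libraries were dropped. Of those that stood lower these were Efna1, Ephb4, Sema3f, Sema6d, Plxna1, Plxnb1, Unc5c and Ntn3. Of those that stood higher they were Ntn1, Efna5, Sema4b and Ephb6, all but Sema4d. With the endothelium covariate Sema6c went from 0.48 to -0.85 and Ephb2 from 0.25 to -0.77. Among the members given in every library by the rule for named genes 4 changed sign: Ntn1 to -0.073 with the heart muscle covariate and Plxnd1 to 0.19 with the endothelium covariate. Epha1 went to -0.051 with the sex and -0.22 with the endothelium covariate, and between -0.13 (leaving out knockdown-labelled replicate 1) and 0.11 when single libraries were dropped, with -0.067 when wild type replicate 3 was. Unc5b went to 0.40 with the endothelium covariate, and from -0.12 to 0.096 when single libraries were dropped, positive (0.042) leaving out wild type replicate 1 and 0.096 leaving out knockdown-labelled replicate 3. Depth limits Slit1, Unc5d and the members under the count floor.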
